A study of Mus musculus with 2 samples.

Results

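The interferon response and MHC class I genes are 32 of the 32245 genes measured in single cells of the mouse knee joint, chosen by name and sorted here into 5 roles. They are 14 antiviral effectors, 6 interferon-inducible GTPases, 4 transcriptional regulators, 4 genes of peptide processing and loading and 4 MHC class I genes. Both libraries came from female C57BL/6 mice at 1 month of age and held cells of the knee joints of several mice pooled. In the control genotype, Stat3fl/fl, both Stat3 alleles carry loxP sites and no Cre is present. In the mutant genotype, Acan-Cre+/Cre;Stat3fl/fl, the same floxed alleles meet a tamoxifen-inducible Cre made from the aggrecan gene Acan, which is active in chondrocytes, and by the study's methods pups received tamoxifen on postnatal days 2 and 3. Floxed Stat3 is thus common to both groups and Cre is not. Cells positive for the blood and endothelial proteins CD45, Ter119 and CD31 were sorted out before droplet capture. With 1 library per genotype no difference has a replicate check and no test was made, so every value describes these 2 libraries, and the intervals given are exact (Clopper-Pearson) 95% intervals for counting error only. The question asked was whether a difference in these genes between the libraries was spread over all cell classes or held by 1 of them.

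Interferons are secreted proteins that alert cells to infection. Type I interferons such as IFN-beta bind the IFNAR receptor and type II interferon, IFN-gamma, binds the IFNGR receptor, and both switch on Janus kinases. The type I signal reaches the interferon-stimulated response element of antiviral genes through a complex that holds STAT2 and IRF9, while the type II signal reaches the gamma-activated site of genes such as Irf1. IRF1 and NLRC5 drive MHC class I genes, whose products show peptides from the cell interior to CD8 T cells. The peptides are cut by the immunoproteasome, moved into the endoplasmic reticulum by TAP and loaded with the help of tapasin. Chondrocytes make the matrix of cartilage. STAT3, which mainly carries signals of the IL-6 cytokine family, binds a site of the same form as the gamma-activated site.

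Matches to the letters of the interferon-stimulated response element lie in the upstream sequences below. The response element was searched for as GAAA, any 2 bases, then GAAA, on both strands in the 250 bases before each RefSeq start, and capitals mark it on the strand of the gene, where TTTC at both ends is the reverse form. The 6 genes shown were picked from members that held the element and were at least 2-fold higher in the chondrocytes of the mutant library. Coordinates are on GRCm38.p6, and B2m is shown because its element lies in a gene of the MHC class I molecule and not of an antiviral protein.
Ifit3 (a partner of the RNA binder IFIT1, chr19:34583382-34583441, + strand): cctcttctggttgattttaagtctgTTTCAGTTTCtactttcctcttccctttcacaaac
Bst2 (tetherin, which holds budding virus, chr8:71537562-71537621, - strand): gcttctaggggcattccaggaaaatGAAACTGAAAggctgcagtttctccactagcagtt
Gbp2 (a guanylate-binding protein, chr3:142620579-142620638, + strand): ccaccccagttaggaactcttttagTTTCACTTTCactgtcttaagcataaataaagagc
Gbp7 (a guanylate-binding protein, chr3:142530258-142530317, + strand): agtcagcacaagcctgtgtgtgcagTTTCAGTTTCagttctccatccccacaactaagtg
Igtp (an immunity-related GTPase, chr11:58199497-58199555, + strand): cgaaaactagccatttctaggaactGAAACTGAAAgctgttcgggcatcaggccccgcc
B2m (the light chain of MHC class I, chr2:122147523-122147582, + strand): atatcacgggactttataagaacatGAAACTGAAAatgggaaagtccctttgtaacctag

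Of the 28 members with a RefSeq entry, 12 (42.9%) held the response element, against 3.46% of all 27025 genes searched in the same way. It was present in 6 of 12 antiviral effectors, 4 of 5 GTPases and 2 of 4 MHC class I genes (B2m and H2-T23), and in 0 of 3 regulators and 0 of 4 processing genes. Isg15, Rsad2, Oas1a, Gbp3 and H2-T23 held the element and were not called higher in chondrocytes by the rule given below. Ifit2, Xaf1, Irf1, Irf7, Irf9, Psmb8, Psmb9, Tap1, H2-K1 and H2-D1 had no match and were called higher. A link between the element and the difference between libraries was not tested. The gamma-activated site, TTCNNNGAA, was present in 7 members (25%), against 8.13% of all genes. Usp18, Rtp4, Iigp1 and Nlrc5 were not searched. A match is a description of letters in this window and does not show that a factor was bound. By position, 7 members lie on chromosome 17 and 5 on chromosome 11. The chromosome 17 members are Psmb8, Psmb9, Tap1, Tapbp, H2-K1, H2-D1 and H2-T23 of the MHC region.

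The control library held 4903 cells and the mutant library 1340, with medians of 4344 and 3743 estimated UMIs (unique molecular identifiers) per cell. Chondrocytes were the cells that carry the authors' own mark, 501 control and 332 mutant cells with medians of 5876 and 8595 UMIs. Gating on Sox9 and Col2a1 instead of the mark gave 1013 control cells but only 335 mutant cells. The marked class was thus much smaller than the gated one for control cells and nearly the same size for mutant cells. The reason for this uneven selection was not tested. The other classes were unmarked cells with both genes of a pair above 0. Pi16 and Cd34 gave 86 and 30 fibroblast-like cells, Bglap and Ibsp 138 and 90 osteoblast-like cells, and Tnmd and Thbs4 273 and 29 tendon-like cells. Adipoq and Lepr gave 97 and 50 marrow stromal-like cells, and Myh11 and Rgs5 46 and 30 mural-like cells. Each gate raised its own marker list, with every marker at least 2-fold above the other cells, except Comp and Chad in the mutant tendon gate and Cspg4 in the mutant mural gate. The libraries differed in quality as well as genotype. Globin transcripts were above 0 in 55.1% to 76.7% of control cells of the 5 unmarked classes and in 0% to 6% of mutant cells, and in no marked chondrocyte of either library. Among marked chondrocytes, cells above 5% mitochondrial counts made up 3.99% of the control and 20.2% of the mutant class. The same shares were 18.1% and 41.1% in Bglap+Ibsp+, 10.3% and 48.3% in Tnmd+Thbs4+, 2.06% and 22% in Adipoq+Lepr+, 23.9% and 43.3% in Myh11+Rgs5+, and 6.98% and 3.33% in Pi16+Cd34+ cells. The ambient RNA correction left 74.9% of control and 97.3% of mutant values within 0.1 of a whole UMI. The part of these differences in the results was not tested, except where a value without such cells is given. The targeted gene, Stat3, was at 142 CPM (counts per 1000000 UMIs of the class) in control and 103 CPM in mutant chondrocytes, or -0.45 as log2 ratio (-0.67 to -0.25). Its log2 ratios were 0.70, -0.13, -0.39, 0.12 and 0.52 in the Pi16, Bglap, Tnmd, Adipoq and Myh11 classes. Because reads were counted near the 3′ end, they carry no information on the floxed exons.

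In chondrocytes the interferon response and MHC class I genes together had a control level of 330 CPM and a mutant level of 893 CPM, which is a log2 ratio of 1.43 (1.33 to 1.54). A ratio of nearly the same size was seen in the Bglap+Ibsp+ cells, at 901 and 2231 CPM (1.31, 1.17 to 1.45). The Adipoq+Lepr+ cells had by far the highest level in both libraries, 5291 and 8444 CPM, and a smaller ratio of 0.67 (0.59 to 0.76). The Pi16+Cd34+ cells stood at 1209 and 1857 CPM (0.62, 0.42 to 0.83) and the Tnmd+Thbs4+ cells at 668 and 861 CPM (0.37, 0.11 to 0.62). In the Myh11+Rgs5+ cells the sums were 1194 and 1459 CPM, and the interval of their ratio included 0 (0.29, -0.03 to 0.62). The mutant sum of all 32 members was thus the higher one in each of the 6 classes, beyond counting error in 5. Without the 4 MHC class I genes, the sum of the other 28 was level in 2 of them. Its log2 ratio was 0.06 in Tnmd+Thbs4+ (-0.44 to 0.54) and -0.04 in Myh11+Rgs5+ cells (-0.49 to 0.42). It was 1.45 in chondrocytes, 1.33 in Bglap+Ibsp+, 0.69 in Adipoq+Lepr+ and 0.58 in Pi16+Cd34+ cells. For all 32 members, the largest ratios under these gates were in chondrocytes and osteoblast-like cells. That order rests on the gate. With either gene of the pair above 0 (Sox9 and Col2a1 for chondrocytes), the log2 ratio was 1.41 in the Adipoq or Lepr class, 1.23 in chondrocytes and 1.01 in the Bglap or Ibsp class. The differences between classes were not tested. The median gene of a class at 10 CPM or more in both libraries was shifted by -0.16 in chondrocytes, -0.19 in Bglap+Ibsp+ cells and -0.14 in Myh11+Rgs5+ cells, so the ratios of the members lie further above that of a typical gene by those amounts. Markers of other cell types also differed between the libraries within the unmarked classes, and their part in the ratios was not tested. In Bglap+Ibsp+ cells the tenocyte markers were at 2931 CPM (control) and 1005 CPM (mutant), the marrow stromal markers at 1145 and 689 CPM and the chondrocyte markers at 7408 and 6095 CPM. That last sum hides a larger shift, since the median log2 ratio of its 10 markers was -3.60 and 2 lay above 0. Col2a1, a cartilage collagen outside that list, was at 4920 and 634 CPM in these cells. The chondrocyte markers were at 1952 and 86.4 CPM in Adipoq+Lepr+ cells, 3640 and 1255 CPM in Tnmd+Thbs4+ cells and 784 and 105 CPM in Myh11+Rgs5+ cells. In Pi16+Cd34+ cells the osteoblast markers were at 8414 and 4712 CPM and the tenocyte markers at 153 and 1241 CPM. The median log2 ratio there was -0.43 over the 8 osteoblast markers. Over the 7 tenocyte markers at a mean of 10 CPM over all cells it was 0.18, so the tenocyte sum was not that of a typical marker.

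**Figure D1:**
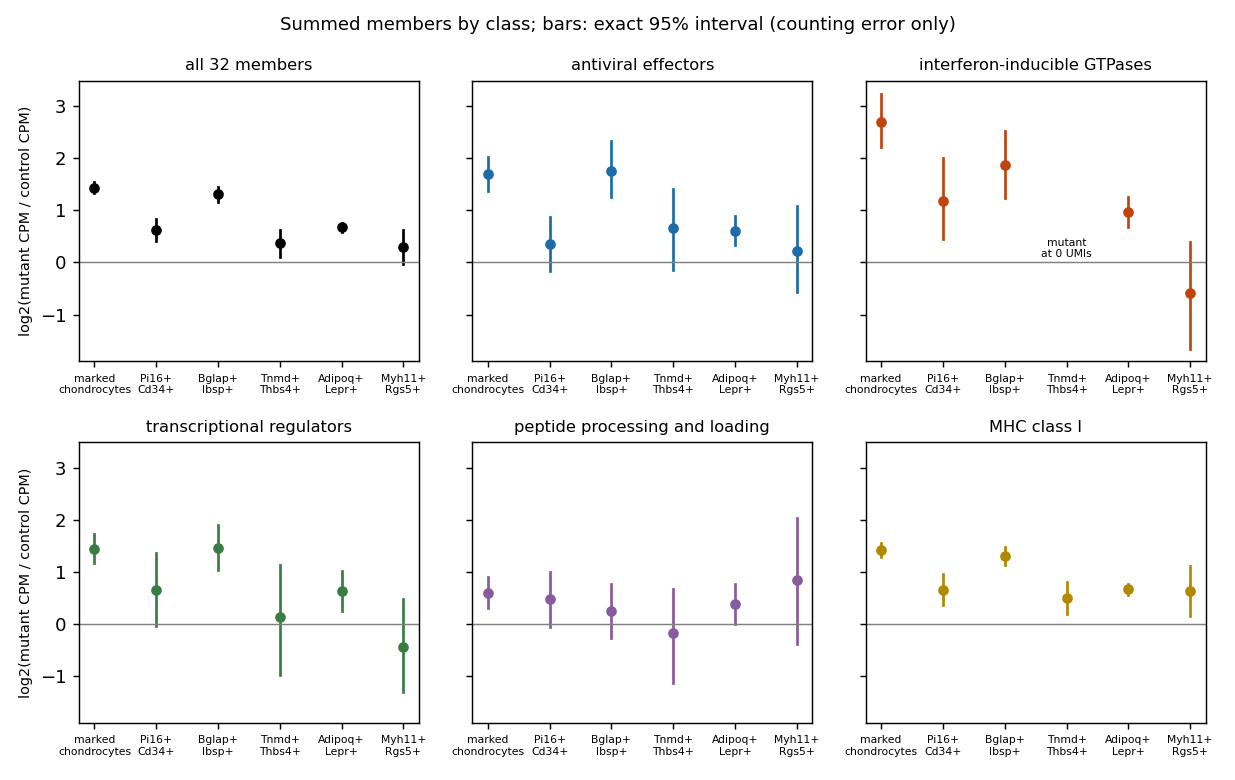
Log2 ratio of mutant to control CPM, without a pseudocount, of the summed members and of each role in the 6 classes of cells. Points are the ratio and bars its exact 95% interval, which covers counting error only. MHC class I lies above 0 in every class, while the GTPases have no mutant UMI in the Tnmd+Thbs4+ class.

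Gene by gene, a member was called when its CPM differed at least 2-fold with at least 10 UMIs in both libraries together, and 20 of the 32 members passed the same expression filter as 8600 genes, a mean of 10 CPM over all cells. The filter used all cells of both libraries and not 1 class. In chondrocytes 14 of these 20 were called higher and 0 lower, where 4.15% of the 8600 genes were called higher and 6.16% lower. Their median log2 ratio was 1.54, against -0.17 for all genes. In Bglap+Ibsp+ cells 9 were higher and 0 lower (background 4.63% and 13.6%), with a median of 1.08 against -0.29. In Pi16+Cd34+ cells 5 were higher and 1 lower (6.24% and 9.40%), with a median of 0.42 against -0.12, and in Adipoq+Lepr+ cells likewise 5 and 1 (6.72% and 11.0%), with 0.58 against -0.12. In Tnmd+Thbs4+ cells 4 were higher and 1 lower (7.24% and 21.8%) and the median was -0.40 against -0.27. In Myh11+Rgs5+ cells 1 was higher and 1 lower (5.03% and 5.33%), with a median of 0.46 against -0.13. The share of members called higher was therefore well above the background in chondrocytes and Bglap+Ibsp+ cells and near it in Myh11+Rgs5+ cells, where only 11 of the 20 had 10 UMIs. Over cells in no gate without a globin value, 7 were higher and 1 lower (4.29% and 4.83%), with a median of 0.54. Over all cells of the libraries, 8 were higher and 1 lower (10.5% and 15.5%).

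Over the whole list of 32 in chondrocytes, 21 were called higher, 0 were called lower, 6 had 10 UMIs and were not called, and 5 had fewer than 10 UMIs. The 6 were Ifi35, Ifih1, Rsad2, Oasl2, Tapbp and H2-T23, and the 5 were Isg15, Ifi44, Oas1a, Ifi47 and Gbp3. The 12 members under the expression filter were Ifit1, Ifit2, Ifit3, Ifi44, Usp18, Rtp4, Oas1a, Oasl2, Ifi47, Gbp3, Nlrc5 and Psmb9. The background shares given for chondrocytes are those of genes that passed the filter, and none is given without it.

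**Figure D2:**
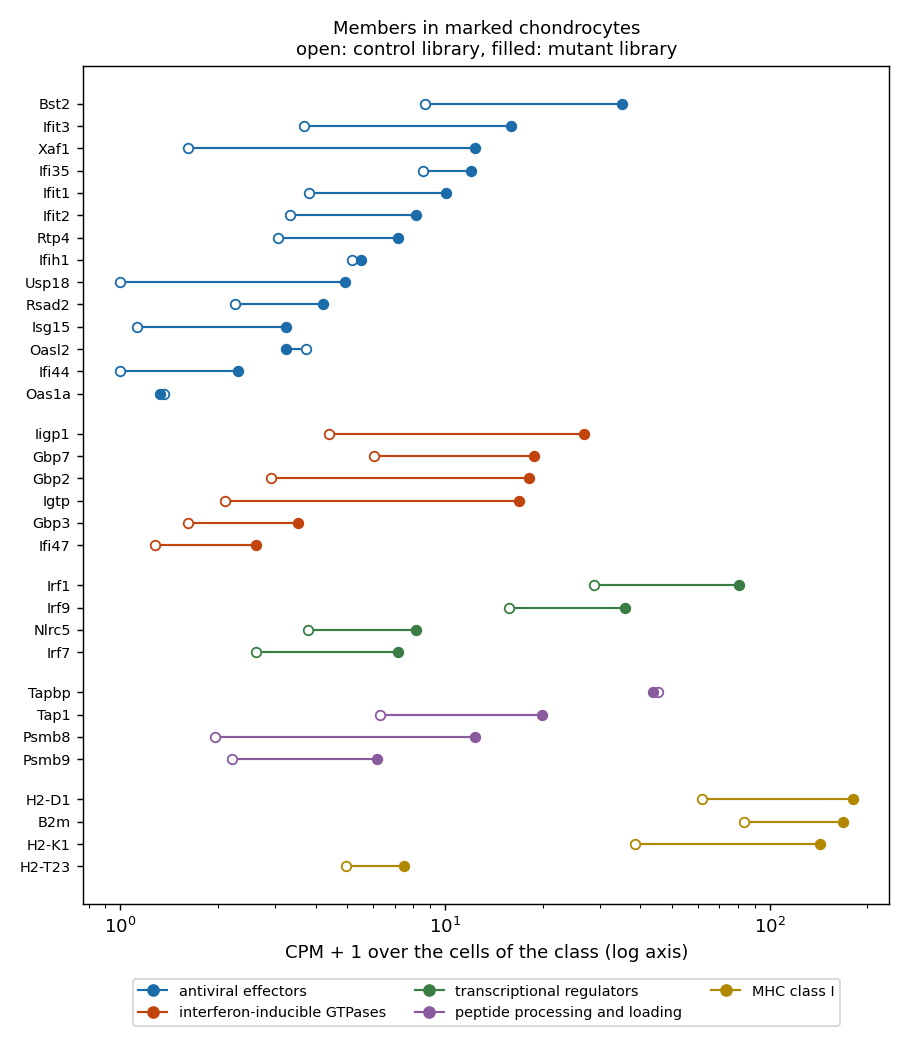
CPM + 1 of each of the 32 members over the marked chondrocytes of the control library (open circles, 501 cells) and the mutant library (filled circles, 332 cells), on a log axis, coloured by role. The filled circle lies to the right of the open one for 29 members and to the left for Tapbp, Oasl2 and Oas1a.

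MHC class I carried most of the UMIs. The 4 genes summed to 185 CPM in control and 494 CPM in mutant chondrocytes (1.42, 1.28 to 1.56). H2-K1, a classical heavy chain that presents peptides, was at 37.4 and 141 CPM (1.89, 1.62 to 2.23). H2-D1, the other classical heavy chain, was at 60.9 and 179 CPM (1.54, 1.31 to 1.80). B2m, the light chain shared by all class I molecules, was at 82.5 and 167 CPM (1.01, 0.80 to 1.24). All 3 were called higher, whereas the nonclassical H2-T23, a ligand of receptors on natural killer cells, was at 3.96 and 6.48 CPM and was not called (0.59, -0.36 to 1.91). The H2 genes are near-identical copies, so how reads were split among them is uncertain, while B2m has no such copy.

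The genes of peptide processing and loading summed to 51.6 and 78.2 CPM, the smallest of the 5 role ratios (0.59, 0.31 to 0.90). Within the role the members parted. Psmb8, a catalytic subunit of the immunoproteasome, was at 0.96 CPM in 3 control cells and 11.3 CPM in 22 mutant cells (2.65). Psmb9, its partner subunit, was at 1.22 and 5.18 CPM (1.48, but -0.30 after thinning to equal depth), and Tap1, the peptide transporter, at 5.29 and 18.9 CPM (1.66). Tapbp, which encodes tapasin and had the most UMIs of the role, was at 44.2 and 42.8 CPM (-0.04, -0.41 to 0.31). The ratio of the summed role thus rested on 3 genes with few UMIs beside 1 that was level.

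The transcriptional regulators summed to 46.8 and 128 CPM (1.43, 1.16 to 1.73), and all 4 were called higher. Irf1, an activator downstream of the gamma-activated site, was at 27.7 and 79.6 CPM (1.49, 1.16 to 1.90). Irf9, the DNA-binding partner of STAT2, was at 14.7 and 34.7 CPM (1.18, 0.72 to 1.78). Irf7, which amplifies type I interferon, was at 1.62 and 6.15 CPM (1.45), and Nlrc5, the coactivator of MHC class I genes, at 2.80 and 7.14 CPM (1.10), both on fewer than 25 UMIs in either library.

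The interferon-inducible GTPases, which attack the vacuoles of intracellular pathogens, had the largest role ratio, 12.4 CPM in control and 80.8 CPM in mutant chondrocytes (6.52-fold, log2 interval 2.21 to 3.24). The 3 richest cells held 37.6% of the control and 35.5% of the mutant GTPase UMIs, an unevenness that the interval does not cover. Igtp was at 1.11 CPM in 4 control cells and 15.9 CPM in 30 mutant cells (3.0). Gbp2 was at 1.92 and 17.2 CPM (2.64) and Gbp7 at 5.07 and 17.8 CPM (1.63). Iigp1 was at 3.41 and 25.8 CPM (2.6), but the 3 richest cells held 100% of its control and 77.2% of its mutant UMIs, and without cells that had a Bglap or Ibsp value its log2 ratio was -0.60. Ifi47 and Gbp3 had too few UMIs for a call.

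The antiviral effectors summed to 34.4 and 112 CPM (1.67, 1.37 to 2.02). Bst2, or tetherin, was at 7.69 and 34.1 CPM (2.01) and Xaf1, which promotes cell death, at 0.62 and 11.4 CPM (2.93). Ifit3, Ifit1 and Ifit2, whose products block translation of foreign RNA, were at 2.69, 2.82 and 2.34 CPM in the control and 15.0, 9.10 and 7.15 CPM in the mutant library. For Ifit1 the direction turned when cells with a Bglap or Ibsp value were left out (-0.54). Rtp4 was at 2.07 and 6.19 CPM (1.23). Usp18, which removes ISG15 from proteins and restrains the receptor, had no UMI in control cells and 12 in 9 mutant cells, at least 4-fold higher if the control held 3 UMIs. These 7 effectors were called higher, and the other 7 were not. Ifi35 had a log2 ratio of 0.49 and Rsad2, or viperin, of 0.90, while the RNA sensor Ifih1 stood at 0.10 and Oasl2 at -0.21. Isg15, Ifi44 and Oas1a had under 10 UMIs, so Isg15, often used as a marker of the response, could not be read in chondrocytes at this depth.

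The difference reached beyond a few cells but was uneven. A UMI of Irf1 was found in 12.6% of control and 27.7% of mutant chondrocytes, of B2m in 36.7% and 53.3%, of H2-K1 in 19.8% and 43.7%, and of H2-D1 in 28.9% and 48.5%. Because mutant chondrocytes were deeper, each cell was also thinned to a depth of 1000 UMIs, at which 490 control and 320 mutant cells could be used. Shares then became 2.86% and 5.62% for Irf1, 11.0% and 14.4% for B2m, 3.67% and 12.8% for H2-K1, and 7.35% and 18.1% for H2-D1. All 4 stayed higher in the mutant library, by fewer percentage points than before thinning. The intervals of the thinned shares were 1.57% to 4.75% and 3.37% to 8.74% for Irf1 and 8.39% to 14.1% and 10.7% to 18.7% for B2m. They were 2.19% to 5.74% and 9.35% to 17% for H2-K1 and 5.20% to 10.0% and 14.1% to 22.8% for H2-D1. These intervals count cells within 1 library per genotype, so they do not measure the spread between mice or libraries. No difference between the 4 genes was tested. After thinning, 4.49% of control and 19.1% of mutant chondrocytes held UMIs of at least 2 members. No class is known to lack these genes, and in control cells with a value for the erythroid gene Alas2, Irf1 was above 0 in 0.91% of cells but B2m in 81.3%, so the latter is no measure of free RNA. The 3 richest cells held 10.3% of the control and 16% of the mutant member UMIs, and without them the log2 ratio of the sum was 1.34. With cells of at most 5% mitochondrial counts it was 1.44, as in all marked cells within counting error.

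The cells under the chondrocyte mark were not of 1 kind, and the mix differed between the libraries. Summed over all marked cells, the 10 chondrocyte markers were at 36068 CPM (control) and 23612 CPM (mutant). The 8 osteoblast markers were at 2933 and 5145 CPM and the 8 marrow stromal markers at 268 and 518 CPM. The 3 mutant cells richest in members held 438 of the 2734 member UMIs, 2442 of the 9312 UMIs of the osteoblast gene Bglap and 7.74 UMIs of the cartilage collagen Col2a1. Leukocyte markers were near 0, with 4.93 and 8.76 CPM over 12 genes, and Ptprc, Tyrobp, C1qa, C1qb, Cd3e and Coro1a had no UMI in either library. Cd68 had 4.64 and 17.9 UMIs.

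The ratio was therefore given in 10 subsets of the marked cells, all chosen after the values were seen. Among the 287 control and 140 mutant cells with no value for any of the 10 gate genes of the other classes, the members summed to 240 and 528 CPM (1.14, 0.97 to 1.32). In these cells the osteoblast markers were at 762 and 398 CPM and the marrow stromal markers at 125 and 127 CPM, so the first list was lower and the second level in the mutant library. Here H2-K1 was at 26.3 and 70.4 CPM (1.38), H2-D1 at 39.3 and 84.1 CPM (1.08), Irf1 at 24.6 and 49.2 CPM (0.97) and B2m at 52.7 and 87.0 CPM (0.71). Irf9 had a log2 ratio of 1.56, Tap1 of 2.0, Gbp7 of 2.54, Igtp of 2.80 and Gbp2 of 3.02. Iigp1 had no UMI in either library, so each of its UMIs in marked cells came from a cell with a value for another class's gene. Of the 20 members, 10 were called higher and 0 lower in these cells, against 3.90% and 10.0% of genes, with a median of 1.06.

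The subsets did not all differ alike. In the 120 control and 136 mutant cells with a value for Prg4, the lubricin gene of the joint surface, the members were level at 584 and 558 CPM (-0.064, -0.26 to 0.13). In the 381 and 196 cells without a Prg4 value they were at 273 and 1113 CPM (2.02, 1.90 to 2.15). Quality and depth also differed across this split, and their part in it was not tested. Cells above 5% mitochondrial counts made up 10.8% of control and 10.3% of mutant Prg4-positive cells, and 1.84% and 27.0% of Prg4-negative cells. Median depths were 3901 and 8480 UMIs in Prg4-positive cells and 6198 and 8929 UMIs in Prg4-negative cells. Other markers moved with this split. The osteoblast markers were at 8706 and 1505 CPM in the Prg4-positive cells and at 1640 and 7540 CPM in the Prg4-negative cells, and the marrow stromal markers at 687 and 288 CPM and at 174 and 669 CPM. With cells that had a Bglap, Ibsp or Prg4 value all left out, the ratio was 1.34. In cells with a value for the cartilage genes Matn1, Matn3, Ucma or Cytl1 it was 1.33, 1.03, 0.89 and 0.79. Without Bglap or Ibsp it was 1.04 and without Cxcl12 1.24. Of the 20 members, 17 were called higher and 0 lower in Prg4-negative cells (background 5.43% and 7.19%) and 1 and 1 in Prg4-positive cells (5.83% and 11.6%). The calls were 11 and 0 without Bglap or Ibsp (3.85% and 8.72%), 11 and 0 without Bglap, Ibsp or Prg4 (4.23% and 10.4%) and 13 and 0 without Cxcl12 (3.50% and 7.13%). They were 7 and 0 in Matn1-positive (5.37% and 13.1%), 9 and 0 in Matn3-positive (3.56% and 9.16%), 9 and 0 in Ucma-positive (3.49% and 8.09%) and 6 and 0 in Cytl1-positive cells (7.45% and 12.5%). The interval lay above 0 in 9 of the 10 subsets, the exception being the Prg4-positive cells, and the difference between subsets was not tested.

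**Figure D3:**
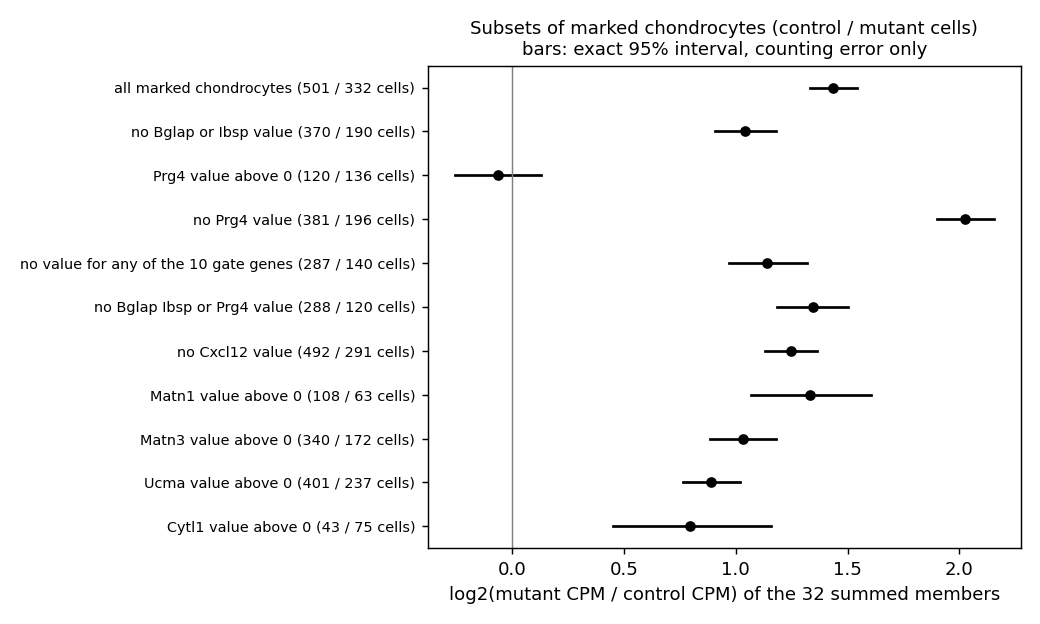
Log2 ratio of mutant to control CPM of the 32 summed members in all marked chondrocytes and in 10 overlapping subsets chosen after the values were seen, with the number of control and mutant cells in each. Bars are exact 95% intervals for counting error. Prg4-positive cells lie at -0.064 and the other subsets between 0.79 and 2.02.

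The members were not higher in mutant cells without a Stat3 value. In the mutant library they summed to 1030 CPM in the 157 marked cells with a Stat3 value and to 716 CPM in the 175 cells without one, and in the control library to 305 CPM in 261 cells and 362 CPM in 240 cells. Mutant cells with a Stat3 value were deeper, with a median of 9950 UMIs against 6241, and the transcript does not report recombination.

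Outside the chondrocytes the 4 most abundant members differed in how widely they were higher. H2-D1 was higher in the mutant library in each of the 6 classes. It was at 165 and 337 CPM in Pi16+Cd34+ cells (1.02), 139 and 489 CPM in Bglap+Ibsp+ cells (1.81), and 161 and 387 CPM in Tnmd+Thbs4+ cells (1.26). It was at 1338 and 2570 CPM in Adipoq+Lepr+ cells (0.94) and 120 and 308 CPM in Myh11+Rgs5+ cells (1.35). H2-K1 was at 145 and 422 CPM in Bglap+Ibsp+ cells (1.53), at 1046 and 1756 CPM in Adipoq+Lepr+ cells (0.75), at 135 and 226 CPM in Pi16+Cd34+ cells (0.74), at 89.0 and 161 CPM in Myh11+Rgs5+ cells (0.85) and at 59.2 and 38.6 CPM in Tnmd+Thbs4+ cells (-0.60, -1.94 to 0.54). The last value rests on 6.87 mutant UMIs, and the counts allow either direction.

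Irf1 was at 57.0 and 156 CPM in Pi16+Cd34+ cells (1.43), 72.8 and 237 CPM in Bglap+Ibsp+ cells (1.69), and 131 and 325 CPM in Adipoq+Lepr+ cells (1.30). With chondrocytes, this regulator was called higher in 4 classes with log2 ratios between 1.30 and 1.69. In Tnmd+Thbs4+ cells it was at 19.4 and 39.0 CPM (0.97, -0.44 to 2.29) and in Myh11+Rgs5+ cells at 162 and 117 CPM (-0.46, -1.53 to 0.56), where the counts allow either direction. B2m was at 306 and 542 CPM in Bglap+Ibsp+ cells (0.82), at 272 and 358 CPM in Pi16+Cd34+ cells (0.40, -0.06 to 0.86), at 1236 and 1481 CPM in Adipoq+Lepr+ cells (0.26), at 305 and 323 CPM in Myh11+Rgs5+ cells (0.08) and at 212 and 179 CPM in Tnmd+Thbs4+ cells (-0.25). A 2-fold difference of B2m was therefore called in chondrocytes and in none of the other 5 classes. Its log2 ratio in chondrocytes lay only just above the cutoff of 1, and the 0.82 of Bglap+Ibsp+ cells lay under it. The call alone thus does not set chondrocytes apart from that class.

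**Figure D4:**
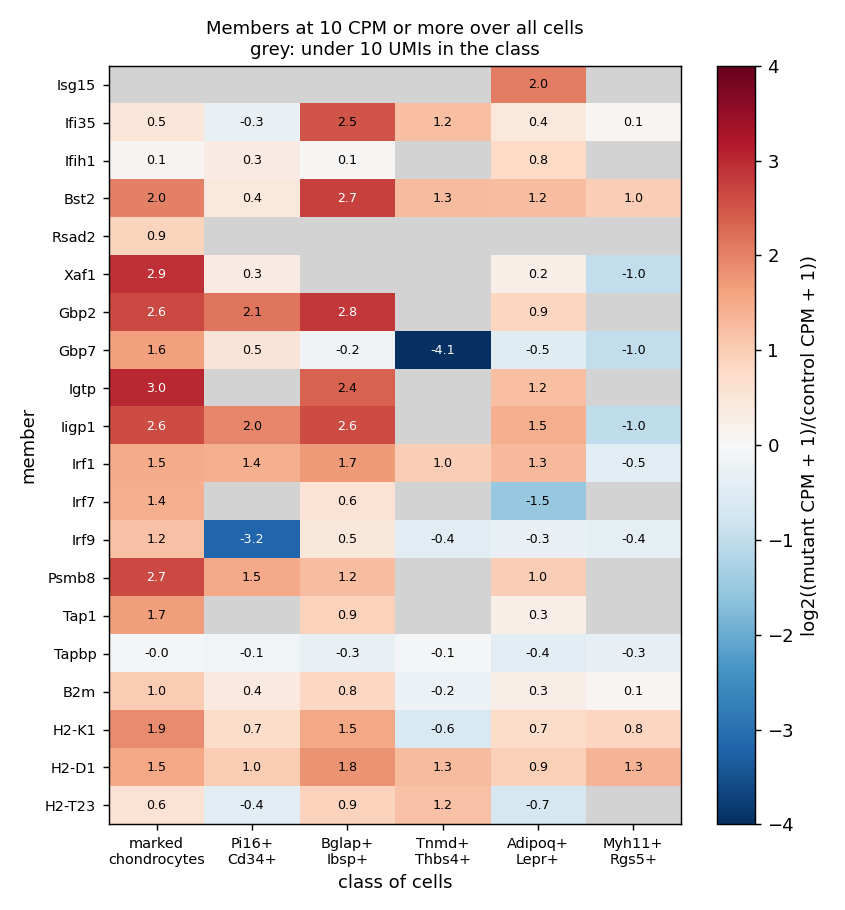
Log2((mutant CPM + 1)/(control CPM + 1)) of the 20 members at 10 CPM or more over all cells, in the 6 classes. Grey cells had under 10 UMIs in the class, and Gbp7 in Tnmd+Thbs4+ cells had 0 mutant UMIs. Irf1 and H2-D1 are red in most classes, and Tapbp is near white in each.

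By role, the MHC class I sum was higher in the mutant library in each of the 6 classes with an interval above 0. Its log2 ratio was 0.66 in Pi16+Cd34+, 1.29 in Bglap+Ibsp+, 0.50 in Tnmd+Thbs4+, 0.67 in Adipoq+Lepr+ and 0.63 in Myh11+Rgs5+ cells. The GTPases were higher in 3 of the 5 unmarked classes, with 1.85 in Bglap+Ibsp+ (1.23 to 2.53), 1.18 in Pi16+Cd34+ (0.45 to 2.01) and 0.97 in Adipoq+Lepr+ cells (0.69 to 1.26). In Myh11+Rgs5+ cells their ratio was -0.59 (-1.65 to 0.39), and in Tnmd+Thbs4+ cells 30.6 control UMIs stood against none in the mutant library, at least 1.52-fold lower if that library held 3 UMIs. In Bglap+Ibsp+, Pi16+Cd34+ and Adipoq+Lepr+ cells the 3 richest cells held 49.6%, 46.5% and 42.1% of the mutant GTPase UMIs. The control shares were 29.0%, 29.3% and 11.2%. The effectors were higher in Bglap+Ibsp+ (1.75, 1.25 to 2.33) and Adipoq+Lepr+ cells (0.61, 0.33 to 0.89), and their interval included 0 in the other 3. The regulators showed the same split, with 1.46 and 0.63 in those classes. The processing genes had intervals that included 0 in 4 of the 5 unmarked classes, and in Adipoq+Lepr+ cells the lower end was 0.0039.

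Among the other members called higher, the immunoproteasome subunit Psmb8 and the GTPases Gbp2 and Iigp1 passed in both Pi16+Cd34+ and Bglap+Ibsp+ cells, as they did in chondrocytes. Bst2 was called higher in Bglap+Ibsp+, Tnmd+Thbs4+ and Adipoq+Lepr+ cells and Igtp in Bglap+Ibsp+ and Adipoq+Lepr+ cells. The names given for Adipoq+Lepr+ cells, where 5 of the 20 members were called higher, are not the full list. Ifi35, not called in chondrocytes, was called higher in Bglap+Ibsp+ cells (2.52) and Tnmd+Thbs4+ cells (1.19), and H2-T23 in Tnmd+Thbs4+ cells (1.18). Isg15 had enough UMIs in Adipoq+Lepr+ cells alone, where it was at 22.8 and 96.9 CPM (2.04), in 8.25% of control and 40% of mutant cells. Of the members under the filter, Psmb9, Nlrc5 and Ifi47 were called higher there and Ifi44 lower. The lower calls among the 20 members were Irf9 in Pi16+Cd34+, Gbp7 in Tnmd+Thbs4+, Irf7 in Adipoq+Lepr+ and Iigp1 in Myh11+Rgs5+ cells, each on fewer than 40 UMIs. Tapbp was called in no class, with log2 ratios between -0.41 and -0.04.

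The rest of the pathway was read in chondrocytes from lists of its other genes. The 11 passing ligand, receptor and signalling genes had a median log2 ratio of 0.13, and 0 were called lower. Stat2, a factor of the type I signal, was at 9.61 and 15.9 CPM (0.67). The receptor chains Ifnar1 and Ifnar2 were at 23.4 and 15.9 CPM and at 35.3 and 38.6 CPM, and Ifngr1 and Ifngr2 at 18.4 and 27.6 CPM and at 11.1 and 13.6 CPM, none of them 2-fold apart. The 6 interferon genes looked up, Ifnb1, Ifna2, Ifna4, Ifng, Ifnl2 and Ifnl3, had no UMI in chondrocytes of either library, and at this depth that does not show that they were absent.

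The nucleic acid sensors other than Ifih1 summed to 24.6 and 25.3 CPM. Of 33 other interferon-induced genes that passed, 9 were called higher and 2 lower in chondrocytes (background 4.15% and 6.16%), with a median of 0.56. The 3 highest abundant pathway genes were Isg20, an exonuclease that degrades RNA, at 6.91 and 31.5 CPM (2.04), Ifitm3, which blocks virus entry, at 41.5 and 112 CPM (1.41), and Ifi27 at 76.0 and 131 CPM (0.78). The 3 lowest were the chaperone Canx at 384 and 240 CPM (-0.68), Ly6e at 43.2 and 30.6 CPM (-0.49) and Stat3 itself. Of 11 other genes of class I presentation, 2 were called higher and 0 lower (median 0.29). None of 14 constitutive proteasome subunits was called in either direction (median 0.19), in contrast to Psmb8, and the 19 genes of dissociation stress had a median of 0.02. In the other classes the same list of interferon-induced genes had medians of 0.40 in Pi16+Cd34+, 0.02 in Bglap+Ibsp+, -0.67 in Tnmd+Thbs4+, -0.20 in Adipoq+Lepr+ and -1.09 in Myh11+Rgs5+ cells. Calls there were 3 higher and 1 lower in Pi16+Cd34+ (background 6.24% and 9.40%) and 6 and 3 in Bglap+Ibsp+ cells (4.63% and 13.6%). They were 1 and 9 in Tnmd+Thbs4+ (7.24% and 21.8%), 4 and 2 in Adipoq+Lepr+ (6.72% and 11.0%) and 0 and 5 in Myh11+Rgs5+ cells (5.03% and 5.33%). The sum of this wider list was higher in the mutant library in 5 classes, with log2 ratios between 0.18 and 0.61, and lower in Myh11+Rgs5+ cells (-0.63). The stress genes had a median of 1.12 in Pi16+Cd34+ cells and 0.65 in Bglap+Ibsp+ cells, and their part in those classes was not tested.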

How the data were processed

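Single cells of the knee joint were measured with a droplet 3′ kit in 2 libraries, 1 per genotype as the labels give it. By the study's methods and processing notes, the authors aligned reads to mm10 with STAR 2.7.3a, counted UMIs on a Gencode annotation in Partek Flow, removed ambient RNA with SoupX (R 4.0.3) and named limits on mitochondrial and total counts, though the tables hold cells over 5% mitochondrial counts. Gene values in the deposited tables are on the scale log2(CPM + 1). Each cell's total was deposited as an estimated count, its mitochondrial and ribosomal parts were deposited as percent of it, and the deposited number of genes found is a score. A text column holds the authors' mark.

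Estimated UMIs, (2 to the power of the value, minus 1) times the cell's total over 1000000, were summed over the cells of a class in each library and scaled to CPM. The log2 ratio of mutant to control CPM, each with 1 added, was then taken (Python 3.11.15, numpy 2.4.6, scipy 1.17.1, matplotlib 3.10.9). Because the values are not whole after ambient removal, no count model was used, and sums were rounded only for intervals and thinning. A call needed a log2 ratio of at least 1 or at most -1 and 10 UMIs over both libraries. Lists were described over genes with a mean of at least 10 CPM over all cells. Cells that met 2 gates (24 control, 6 mutant) were left out of the unmarked classes, and 2 barcodes were shared by the libraries. Scrublet (scanpy 1.11.5, expected rate 0.05) marked 1.51% of control and 0.149% of mutant cells as doublets. Whether it worked in the mutant library is not known. Doublets were kept in the main values. The members, lists and rules were chosen with earlier results of these data known. The text names all 32 members. Values in every class are given for those at 100 CPM or more over all cells of either library, and of the pathway lists (signalling, nucleic acid sensors, other interferon-induced and other class I genes, not the constitutive proteasome) for Stat2, Stat3, the receptors and the 3 highest and 3 lowest log2 ratios in marked chondrocytes at 100 CPM or more. Mx1, Mx2 and H2-T10 were not analysed here, and 1 result under this rule is not reported here. Promoter sequences are from RefSeq on GRCm38.p6, the assembly of mm10, and chromosomes of genes from Gencode M21, another release than the authors used. The calculations were tested on simulated data. Alternatives were the gate, globin-positive cells, the mitochondrial limit, doublets, equal weight per cell, centring, pseudocounts of 0.1 and 10, thinning to 1000 UMIs, the 3 richest cells, no expression filter and 10 subsets of chondrocytes added after the values were seen.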

Additional observations from a re-analysis of the deposited data

Results flagged for a closer look

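For 5 members the log2 ratio was called higher in chondrocytes and lower in another class, and the difference between the classes was not tested. The lower side rests on few UMIs each time. Ifit2 had 1.29 in chondrocytes and -1.14 in Tnmd+Thbs4+ cells, where 16.2 control UMIs stood against 1 in the mutant library. Gbp7 had 1.63 in chondrocytes and -4.07 in Tnmd+Thbs4+ cells, with 18.8 against 0 UMIs, and that value depends on the pseudocount, since 3 UMIs in the mutant class would be 16.9 CPM and the control level was 15.8 CPM. Iigp1 had 2.6 in chondrocytes and -1.01 in Myh11+Rgs5+ cells, with 6.96 against 3.97 UMIs and a log2 interval of -3.25 to 0.94. Irf7 had 1.45 in chondrocytes and -1.51 in Adipoq+Lepr+ cells, with 27.5 against 8.97 UMIs and an interval of -2.79 to -0.39. Irf9 had 1.18 in chondrocytes and -3.18 in Pi16+Cd34+ cells, with 13.5 against 0.99 UMIs, and an interval of -8.90 to -0.78.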

How the results depend on the processing

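No paired analysis was possible because each genotype has 1 library and no test was made. In chondrocytes no alternative to all marked cells other than the Prg4-positive subset gave a sum or median below 0. Of 341 alternative values of class medians, call counts, sums and shares, 249 stayed near the main value. Call counts of the alternatives below stand without a share over all genes, which is given for the chondrocyte subsets above. Causes of the moves below were not tested, beyond what an alternative removes by construction.

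In chondrocytes the summed log2 ratio of 1.43 became 1.23 with Sox9 and Col2a1 as the gate, 1.29 with cells weighted equally and 1.59 after centring. A pseudocount of 10 gave a median of 0.93 and 8 higher calls, and thinning gave 6 higher calls. Thinning took the share differences from 15.1 to 2.77 percentage points for Irf1, 16.6 to 3.35 for B2m, 23.9 to 9.14 for H2-K1 and 19.6 to 10.8 for H2-D1. Among the subsets, the sum was 1.04 without Bglap or Ibsp, 1.14 without any of the 10 gate genes and 1.24 without Cxcl12. Prg4-positive cells had a median of -0.23, a sum of -0.064 and 1 call each way, and Prg4-negative cells a median of 2.24 and a sum of 2.02. Matn1-positive cells had a median of 0.93, 7 higher calls and a sum of 1.33, Matn3-positive cells 9 calls and 1.03, Ucma-positive cells a median of 0.94, 9 calls and 0.89, and Cytl1-positive cells 6 calls and 0.79. Single members turned below 0 in some subsets. Psmb9 had -0.30 after thinning, and without Bglap or Ibsp Ifit1 had -0.54 and Iigp1 -0.60, or -0.25 and -0.34 without Prg4 as well. In Prg4-positive cells Rtp4 had -0.74, Gbp7 -0.41, Iigp1 -3.01, Irf7 -1.0, Nlrc5 -0.34, Psmb9 -0.17, B2m -0.45 and H2-D1 -0.048. In Cytl1-positive cells Ifit2 had -1.33, Rtp4 -2.39, Gbp2 -0.10 and Gbp7 -0.44.

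In Pi16+Cd34+ cells (main sum 0.62) either gene as the gate gave a sum of 0.31. Cells without globin gave 3 higher and 0 lower calls, thinning 0 and 0 with a sum of 0.29, and leaving out the 3 richest cells 2 higher calls. In Bglap+Ibsp+ cells (1.31) either gene gave a sum of 1.01, no globin a median of 1.67, equal weights a median of 1.74 and a sum of 1.60, centring 1.5, thinning a median of 1.68 with 4 higher and 1 lower calls, and leaving out the 3 richest cells a sum of 1.10. In Tnmd+Thbs4+ cells (0.37) the lower calls were 6 with either gene, 0 without globin and 2 without the filter. The higher calls were 2 without globin, with equal weights, after thinning or without the 3 richest cells, and 1 with a pseudocount of 10, and the mitochondrial limit gave a sum of 0.69. In Adipoq+Lepr+ cells (0.67) either gene gave a median of 1.17, 11 higher and 0 lower calls and a sum of 1.41. The sum was 0.52 without globin or with equal weights, which gave 3 higher calls, and 0.55 without doublets. There were 8 higher calls under the mitochondrial limit, 8 higher and 2 lower without the filter, and a median of -0.14 with 3 higher calls after thinning. In Myh11+Rgs5+ cells (0.29) either gene gave a median of -0.21, 2 higher calls and a sum of 0.65. Higher and lower calls were 2 and 0 without globin or after centring, and 0 and 0 after thinning. Equal weights gave 3 higher calls, and the lower calls were 3 with a pseudocount of 0.1 and 0 with 10 or without the 3 richest cells. Over all cells (0.83, median 0.43) no globin gave a median of 1.26, 0 lower calls and a sum of 1.24. The sum was 0.87 under the mitochondrial limit or after centring, 0.89 after thinning and 0.78 without the 3 richest cells, and the lower calls were 2 with equal weights, a pseudocount of 0.1, thinning, no filter or without those cells.

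The unmarked classes held 29 to 90 mutant cells, and 9 of 20 members in Myh11+Rgs5+ cells and 10 in Tnmd+Thbs4+ cells had under 10 UMIs, so a difference in a single gene was often not detectable and a 2-fold call less certain there than in chondrocytes.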

Other observations

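Several interferon-induced genes outside the rule for named genes were looked at after their values were seen. The chemokine genes Cxcl9 and Cxcl10, whose products draw T cells, were at 0.65 and 37.1 CPM and at 4.08 and 49.9 CPM in control and mutant chondrocytes. Cxcl9 was above 0 in 1 control and 10 mutant cells, and its 3 richest mutant cells held 69.5% of its UMIs. Cxcl10 was above 0 in 9 and 22 cells, and its 3 richest mutant cells held 56.2%. The GTPase gene Irgm1 was at 8.49 and 46.2 CPM (log2 ratio 2.31) in 25 and 55 cells, and had a log2 ratio of 2.57 in the cells with no gate gene of another class. Cd274, which encodes PD-L1, was at 0.32 and 10.1 CPM, on 0.97 and 30.9 UMIs. The genes named here so far were all higher in the mutant library, and the list as a whole was mixed. Its 2 genes called lower in chondrocytes were Lgals9 and Znfx1. Lgals9 was at 7.94 and 3.43 CPM (-1.01), on 24.4 and 10.5 UMIs. Znfx1 was at 4.62 and 0.96 CPM (-1.52), on 14.2 and 2.95 UMIs.

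The MHC class II genes looked up summed to 24.6 and 50.0 CPM in chondrocytes. Within them H2-Aa was at 0.33 and 7.49 CPM and the invariant chain Cd74 at 2.26 and 12.6 CPM, while H2-Ab1 was at 8.61 and 9.11 CPM. H2-Aa was above 0 in 1 control and 12 mutant cells and Cd74 in 7 and 13. The 3 richest mutant cells held 47.9% of the H2-Aa and 61.9% of the Cd74 UMIs. Socs1, a feedback inhibitor of interferon signalling, was at 18.5 and 32.1 CPM (0.76), and Socs3, a target of STAT3, at 81.1 and 69.1 CPM (-0.23).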
